A study of Mus musculus with 12 samples.

Results

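The Hox genes of clusters A to D were followed in endothelium-enriched RNA of mouse carotid arteries. All probes that the platform annotation assigned to 38 listed Hox genes were taken, which gave 57 of the 45281 probes and 38 of the 19057 genes with a symbol. Gene expression had been measured on Illumina bead arrays in male C57Bl6 mice, 9 weeks old per the sample labels and 6 to 8 weeks old per the series text. In every mouse the left carotid artery had been partly ligated, with 3 of its 4 caudal branches tied, which leaves low and oscillatory flow in that artery (LCA), and the right artery (RCA) was not touched. From 2 weeks before the operation until tissue was taken 7 days after it, daily intraperitoneal injections held either saline or 0.2 mg/kg/day of 5-aza-2'-deoxycytidine (5Aza), which blocks DNA methyltransferases. The 4 groups were saline RCA, saline LCA, 5Aza RCA and 5Aza LCA. Each held 3 samples, and each sample was RNA flushed from 3 pooled arteries. Samples carry the numbers of their titles (1, 2 and 4, except 1, 3 and 4 in 5Aza RCA). There was no sham-operated group, so effects of flow, of the operation and of the side of the body cannot be told apart.

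Hox genes encode transcription factors that bind DNA through a homeodomain. They lie in clusters whose order along the chromosome follows the order in which the genes are used along the body axis, from the anterior genes with low numbers to the posterior genes with high numbers. Adult vessels keep a regional Hox pattern from the embryo. In cultured endothelial cells, human HOXA5 and HOXD10 are known for holding cells in a resting state and HOXA3, HOXB3 and HOXD3 for promoting migration and sprouting. Cluster chromatin is kept active by trithorax proteins and silent by Polycomb proteins, and CpG-rich Hox promoters are frequent sites of DNA methylation.

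The promoters of the 2 Hox genes whose RNA passed the test between groups, Hoxa5 and Hoxa10, are shown. The methyltransferases that 5Aza blocks act on CpG sites. Both genes lie in cluster A on chromosome 6, on the minus strand. RefSeq windows of 250 bases before and 50 bases after a transcript's start were at hand for 22 of the 38 genes (24 windows, mouse build GRCm38.p6). The 250 bases before the start are printed 5' to 3' on the gene's strand, with each CpG in capitals, for Hoxa5 at chr6:52204588-52204837 and for the starts of Hoxa10 at chr6:52234940-52235189 and chr6:52240855-52241104.
Hoxa5: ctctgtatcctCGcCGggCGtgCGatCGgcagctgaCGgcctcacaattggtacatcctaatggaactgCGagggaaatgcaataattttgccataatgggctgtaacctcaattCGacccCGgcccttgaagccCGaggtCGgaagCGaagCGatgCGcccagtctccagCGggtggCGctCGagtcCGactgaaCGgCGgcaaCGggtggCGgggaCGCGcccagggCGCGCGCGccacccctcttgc
Hoxa10, first start: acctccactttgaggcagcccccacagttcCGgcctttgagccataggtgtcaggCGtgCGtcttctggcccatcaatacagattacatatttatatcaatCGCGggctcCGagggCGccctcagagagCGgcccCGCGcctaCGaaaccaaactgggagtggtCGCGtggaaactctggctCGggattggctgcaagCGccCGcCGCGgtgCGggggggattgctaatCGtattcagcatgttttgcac
Hoxa10, second start: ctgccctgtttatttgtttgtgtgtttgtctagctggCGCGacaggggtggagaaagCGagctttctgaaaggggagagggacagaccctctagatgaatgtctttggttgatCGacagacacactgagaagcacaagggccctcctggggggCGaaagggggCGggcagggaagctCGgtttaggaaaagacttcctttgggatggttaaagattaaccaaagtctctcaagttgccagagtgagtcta
The Hoxa5 window held 29 CpG, 28 of them in the printed part, as many as or more than 88.3% of the 32851 windows in the table. The Hoxa10 windows held 21 and 12, with 20 and 7 of them in the printed parts. The median over the Hox windows was 14.5 CpG (range 4 to 45), against 7 over all windows. On both strands the cyclic AMP response element TGACGTCA was searched together with its core TGACG, which the longer motif contains on either strand. The full element was in none of the 24 Hox windows and in 1.79% of all windows. The core was in 7 Hox windows (29.2%) and in 20.8% of all windows. Hoxa5 held 1 copy of the core, starting at base 34 of the printed sequence, and the Hoxa10 windows held none. DNA methylation itself was not analysed here.

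Hox RNA was detected mainly from clusters A and B. Detection on an array meant a detection p-value under 0.05 for at least 1 probe of the gene. By this measure 8 Hox genes were detected on all 12 arrays: Hoxa2, Hoxa3, Hoxa5, Hoxa13, Hoxb3, Hoxb4, Hoxb5 and Hoxd8. Another 8 were detected on 6 to 11 arrays, 5 on 1 to 5 arrays and 17 on none. A single array detected between 13 and 17 of the 38 genes. Cluster A on chromosome 6 had 8 of 10 genes that passed the filter for testing, which asks for detection on all 3 samples of at least 1 group. Cluster B on chromosome 11 had 4 of 10, cluster C on chromosome 15 had 1 of 9 and cluster D on chromosome 2 had 2 of 9. By position, 4 of 7 genes of paralog groups 1 to 3 passed, 7 of 15 of groups 4 to 8, and 4 of 16 of groups 9 to 13. In all, 15 of 38 Hox genes (39.5%) passed, against 10596 of 19057 genes (55.6%).

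**Figure D1:**
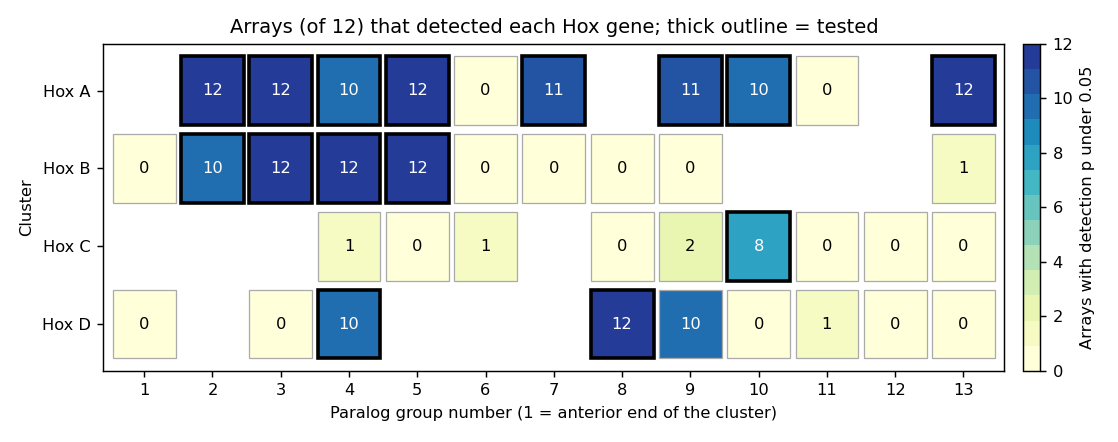
Number of the 12 arrays that detected each of the 38 Hox genes, by cluster (rows A to D) and paralog group number (horizontal axis, 1 at the anterior end), with a thick outline around the 15 genes that were tested. The 8 genes with 12 of 12 arrays lie in clusters A, B and D, and the 17 genes at 0 include 5 each in clusters B, C and D.

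The 23 genes that were not tested are accounted for by detection alone. Hoxd9 was detected on 10 arrays but never on all 3 samples of a group with the same probe. Hoxc9 was detected on 2 arrays, both saline LCA. Hoxb13, Hoxc6 and Hoxd11 were detected on 5Aza RCA 1 alone and Hoxc4 on 5Aza RCA 4 alone. Their detection p-values there were 0.022 to 0.046, against the threshold of 0.05. The remaining 17 (Hoxa6, Hoxa11, Hoxb1, Hoxb6, Hoxb7, Hoxb8, Hoxb9, Hoxc5, Hoxc8, Hoxc11, Hoxc12, Hoxc13, Hoxd1, Hoxd3, Hoxd10, Hoxd12 and Hoxd13) were detected on no array and gave log2 intensities of at most 4.53, near the floor of the measurement. The lowest value of any untested gene was 4.15 and the highest, of Hoxd9, was 5.59. Whether they are transcribed below that floor was not detectable. Of the 38 genes, 25 were on a single probe. The call of Hoxa13, a gene of digit and urogenital development, rested on 1 of 3 probes, and those of Hoxa10 and Hoxc10 on 1 of 2.

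As background to all comparisons, between 21443 and 23251 probes were detected per array. Within saline LCA, sample 1 differed from the others: its correlation over genes was 0.857 with saline LCA 2 and 0.856 with saline LCA 4. That between these last was 0.971, and the other pairs within a group lay between 0.935 and 0.959. Across groups, saline LCA 2 and 4 were the ones farther off, with correlations of 0.801 to 0.887 with arrays of other groups. Saline LCA 1 had correlations of 0.915 to 0.940 with those arrays. Of the 12 endothelial markers, 11 were detected on every array and none was undetected. Their mean log2 level was 9.29 to 9.32 in saline RCA, 8.84 to 8.97 in saline LCA, 9.32 to 9.36 in 5Aza RCA and 8.90 to 9.13 in 5Aza LCA. The 12 tested macrophage markers averaged 4.24 to 5.23 in saline RCA, 7.10 to 9.28 in saline LCA, 4.58 to 5.66 in 5Aza RCA and 6.69 to 7.68 in 5Aza LCA. The 9 tested smooth muscle markers stood at 7.19 to 7.24 in saline LCA and between 6.37 and 6.90 in the other groups. The 11 tested fibroblast markers stood at 7.92 to 8.25 in 5Aza LCA and between 6.44 and 7.60 elsewhere. On all 12 arrays, 6 of 12 smooth muscle, 1 of 9 adipocyte and 1 of 6 Schwann cell markers were detected. Casq2 of smooth muscle, Retn of adipocytes and S100b and Sox10 of Schwann cells were detected on no array. The 2 tested Schwann cell markers averaged 4.69 to 5.26 in saline LCA and between 5.19 and 5.70 in the other groups.

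Saline LCA set against saline RCA asks what the ligated artery of untreated mice shows. Hoxa5, which is needed for lung and cervical skeleton development in mice and is known as a quiescence factor in human endothelium, was clearly lower in the ligated artery. Its log2 intensity was 8.13, 8.19 and 8.24 in saline RCA 1, 2 and 4, and 7.05, 6.54 and 6.79 in saline LCA 1, 2 and 4. All 3 ligated samples lay more than 1 log2 unit below every unligated sample, and the gene was detected on all 12 arrays. The group means were 8.19 ± 0.05 and 6.80 ± 0.26 (SD, n = 3 each). Hoxa5 fell by 1.39 on the log2 scale in limma (SE 0.22, adjusted p = 0.00523), a 2.63-fold difference. The authors selected Hoxa5 for study on these samples, so this is not independent evidence of its direction.

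Hoxa10, a posterior gene known for its part in uterine development and blood cell formation, was the other Hox gene that passed. It read 5.50, 5.73 and 5.08 in saline RCA 1, 2 and 4 and 4.41, 4.20 and 4.48 in saline LCA 1, 2 and 4. Every ligated sample lay below every unligated sample, and only 1 of the 3 saline LCA arrays detected the gene, so its level there was close to background. Hoxa10 fell by 1.07 (SE 0.21, limma adjusted p = 0.0121). The fold depends on how background was removed: without background correction the log2 fold change was -0.39 (adjusted p = 0.0247). It was no longer called without saline RCA 2 (adjusted p = 0.053), without saline LCA 2 (adjusted p = 0.0641) or in a fit on the saline groups alone (adjusted p = 0.0684).

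These 2 genes were the members called, both lower, out of 15 tested (13.3%). Over all 10596 genes 6.24% were called lower, 5.29% higher and 11.5% in either direction. In 4 of the 15 tested (Hoxa3, Hoxa5, Hoxa10 and Hoxb4) the ligated samples lay wholly below the unligated ones, against 16.4% of all genes, and in none wholly above, against 13.3%. Values below 0 were seen for 12 of 15, against 54.3% of all genes. The median log2 fold change of the members was -0.44, against -0.05 for all genes, with members between -1.39 and 0.13. The direction and the size of this shift describe the 15 genes and were not tested as a set.

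Among the anterior genes, Hoxa3, which patterns the pharyngeal arches and their arteries in mice, read 5.52, 4.96 and 5.71 in saline RCA and 4.65, 4.50 and 4.60 in saline LCA (samples 1, 2 and 4). The groups did not overlap, and the log2 fold change was -0.82 (SE 0.26, adjusted p = 0.0589). A second probe for Hoxa3 gave -0.27 (SE 0.23), so the size differed between its probes. Hoxb4, known for its effect on blood stem cells, read 7.00, 5.56 and 5.64 in saline RCA and 5.24, 4.94 and 5.19 in saline LCA. Its groups did not overlap either, but saline RCA 1 alone was more than 1 unit above the rest, and the fold change of -0.94 (SE 0.38, adjusted p = 0.12) did not pass. Hoxa7, which lies between Hoxa5 and Hoxa9 in the cluster, read 5.45 to 6.27 in saline RCA and 4.44 to 5.71 in saline LCA, with saline LCA 1 the lowest. Hoxb5, the paralog of Hoxa5 in cluster B and an activator of the VEGF receptor gene Kdr in mouse cells, stood at -0.48 (SE 0.47, adjusted p = 0.536). Hoxc10, the paralog of Hoxa10 in cluster C, was detected on all 3 saline LCA arrays and on 0 of the 3 saline RCA arrays. The lowest detected signal was also lower on the saline LCA arrays (4.45 to 4.48, against 4.49 to 4.52). Hoxc10 read 4.41, 4.51 and 4.48 in saline RCA and 4.73, 4.46 and 4.59 in saline LCA. Its groups overlapped, and the log2 fold change of 0.13 (SE 0.16, adjusted p = 0.624) did not establish a direction. The intervals of both paralogs were wide or lay near the floor, so they do not show a response like or unlike that of cluster A.

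Hoxa9 of cluster A and Hoxd8 of cluster D showed little difference in their means, with wide intervals. Hoxa9, which in human endothelial cells is needed for NOS3, KDR and E-selectin expression, read 5.34, 5.11 and 5.82 in saline RCA and 4.70, 5.98 and 5.70 in saline LCA, a log2 fold change of 0.04 (95% interval -0.71 to 0.79). Its probes differed: the third was detected on all 3 saline RCA arrays and on no other array (adjusted p = 0.121 over probes in limma). Hoxd8 read 5.72, 6.65 and 5.62 in saline RCA and 5.49, 7.07 and 5.38 in saline LCA. In both arteries the sample numbered 2 was the highest, and the log2 fold change was -0.01 (95% interval -0.97 to 0.94). The remaining tested genes (Hoxa2, Hoxa4, Hoxa13, Hoxb2, Hoxb3 and Hoxd4) had log2 fold changes between -0.58 and 0.12, none past the test. The 4 passing probes of Hoxb3, a gene known for capillary formation, disagreed in sign, from -0.52 to 0.42.

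**Figure D2:**
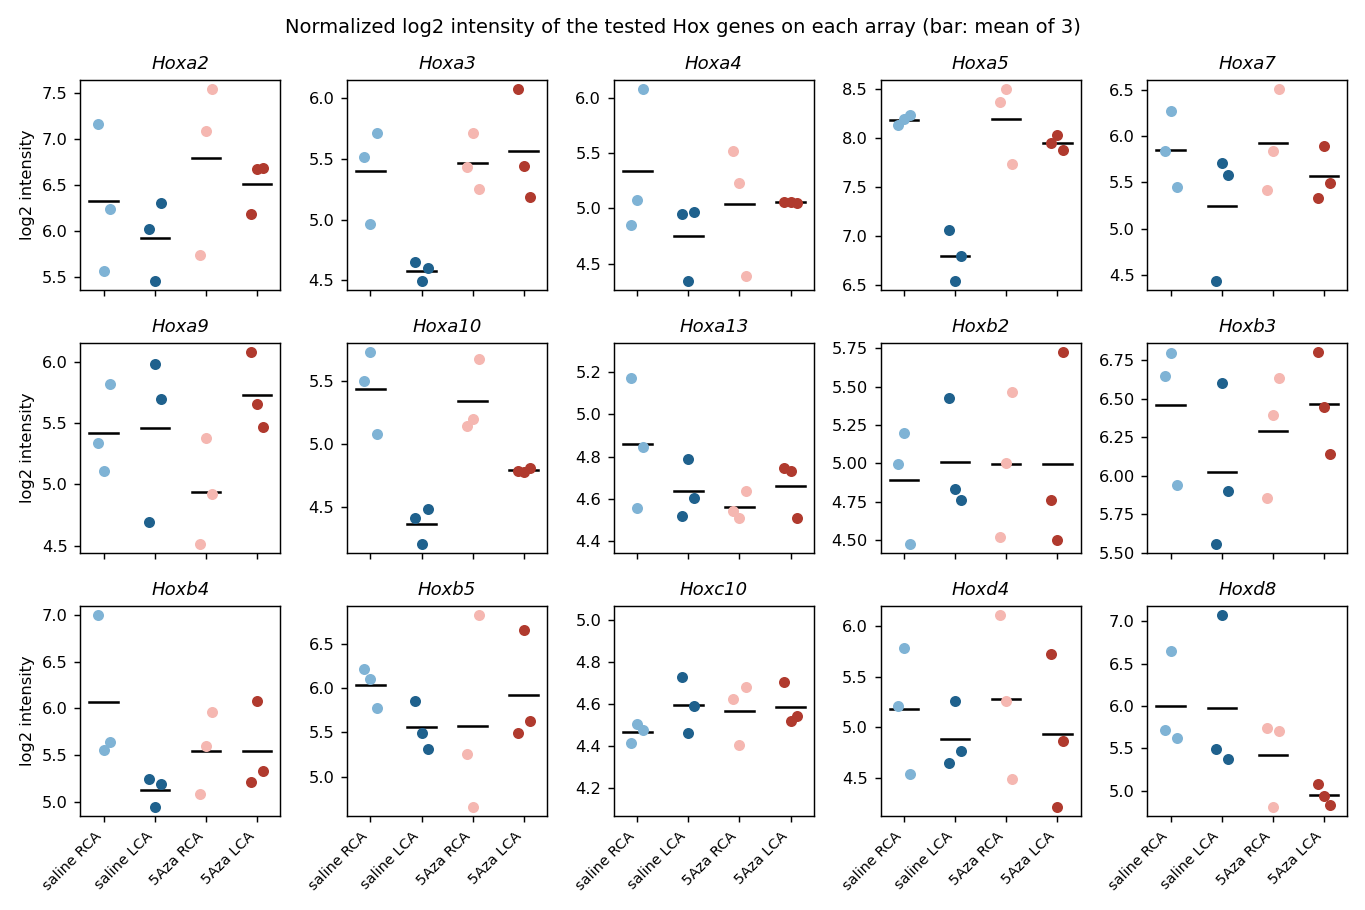
Normalized log2 intensity (vertical axis, a separate range for each gene) of the 15 tested Hox genes on each of the 12 arrays, by group, with 1 point per array and a bar at the mean of 3. Hoxa5 shows the saline LCA samples between 6.54 and 7.05, below all 9 other samples, which lie between 7.73 and 8.50.

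The RNA was from flushed arteries, and in such bulk samples fewer cells of a type and less RNA per cell cannot be told apart. Endothelial markers moved the same way as Hoxa5: 4 of 11 were lower, none higher, and the list level did not overlap between saline LCA and saline RCA. Macrophage markers moved the opposite way, with 12 of 12 higher in saline LCA. Of all genes 6.24% were called lower in this comparison and 5.29% higher. Subtracting each array's endothelial level, a step chosen after the values were seen, left a difference of -0.99 for Hoxa5 and -0.67 for Hoxa10, with no overlap between groups for either. Subtracting the fibroblast level left -1.19 for Hoxa5 with no overlap and -0.87 for Hoxa10 with overlap. The part of the macrophage RNA in these results was not tested.

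The comparison of 5Aza LCA with 5Aza RCA asks the same of mice given the inhibitor. No Hox gene was called out of 15 in limma, where 0.453% of all genes were (0.236% higher and 0.217% lower), and 2 Hox genes had an unadjusted p under 0.05. Hoxa5 read 8.37, 8.50 and 7.73 in 5Aza RCA 1, 3 and 4 and 7.95, 8.04 and 7.87 in 5Aza LCA 1, 2 and 4. The ligated samples lay inside the range of the unligated ones, which sample 4 of 5Aza RCA widened. The log2 fold change was -0.25 (SE 0.22, 95% interval -0.72 to 0.22, adjusted p = 0.676). This interval leaves out a fall as large as the 1.39 seen in saline mice. The difference between both flow effects was tested directly as an interaction. Hoxa10 read 5.15, 5.20 and 5.67 in 5Aza RCA and 4.79, 4.77 and 4.81 in 5Aza LCA. The groups did not overlap and the value was -0.55 (SE 0.21, adjusted p = 0.319).

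Hoxa9 read 4.51, 5.38 and 4.92 in 5Aza RCA 1, 3 and 4 and 6.08, 5.66 and 5.47 in 5Aza LCA 1, 2 and 4. Here the ligated samples were the higher ones and did not overlap with the unligated ones, but the difference of 0.80 (SE 0.34, adjusted p = 0.379) did not pass. A second probe of Hoxa9 gave 0.96 (SE 0.37, adjusted p = 0.345 over probes), and the third was detected on no 5Aza array. Complete separation of the groups was seen for 1 of 15 Hox genes in each direction, against 10.9% of all genes higher and 12.2% lower. Values below 0 were seen for 8 of 15, against 52.3% of all genes, and the median was -0.00, against -0.02.

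The comparison of 5Aza LCA with saline LCA asks what the inhibitor changed in the ligated artery. It shares the saline LCA samples with the first comparison, so both sets of fold changes are not independent and only their own values are given. Hoxa5 was higher with 5Aza: the 3 treated samples (7.87 to 8.04) lay above the 3 saline samples (6.54 to 7.05). Hoxa5 rose by 1.16 (SE 0.22, limma adjusted p = 0.0478), a 2.23-fold difference. It was the only Hox gene called, where 0.293% of all genes were called higher, 0.17% lower and 0.462% in either direction. This call was close to the threshold and ended in 10 of 12 fits that left out 1 array, with adjusted p between 0.0537 and 0.201. It held without saline LCA 1 (adjusted p = 0.00268) and without 5Aza RCA 4. Its value stayed between 1.03 and 1.29 in all 12 fits. Since the authors selected Hoxa5 on these samples, neither this rise nor the Hoxa5 interaction below is independent evidence.

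Hoxa3 read 6.07, 5.44 and 5.19 in 5Aza LCA 1, 2 and 4, above all saline LCA samples (4.50 to 4.65), higher by 0.99 on the log2 scale (SE 0.26, adjusted p = 0.1). It passed without saline LCA 1 (1.02, adjusted p = 0.0307), a fit that called 2051 of all 10596 genes, against 49 with all arrays. Its second probe gave 0.17 (SE 0.23). Hoxa4 (5.05 to 5.06 against 4.34 to 4.97) and Hoxa10 (4.77 to 4.81 against 4.20 to 4.48) were also separated, with fold changes of 0.30 and 0.42 that did not pass. In total 4 of 15 Hox genes were separated upward, all of cluster A, against 10.3% of all genes, and 1 downward, against 8.02%. That 1 was Hoxd8, at 5.08, 4.94 and 4.83 in 5Aza LCA and 5.49, 7.07 and 5.38 in saline LCA. The log2 fold change was -1.03 (SE 0.44, adjusted p = 0.237), and saline LCA 2 lay farthest from the rest. Values above 0 were seen for 12 of 15, against 54.4% of all genes, and the median was 0.33, against 0.04.

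**Figure D3:**
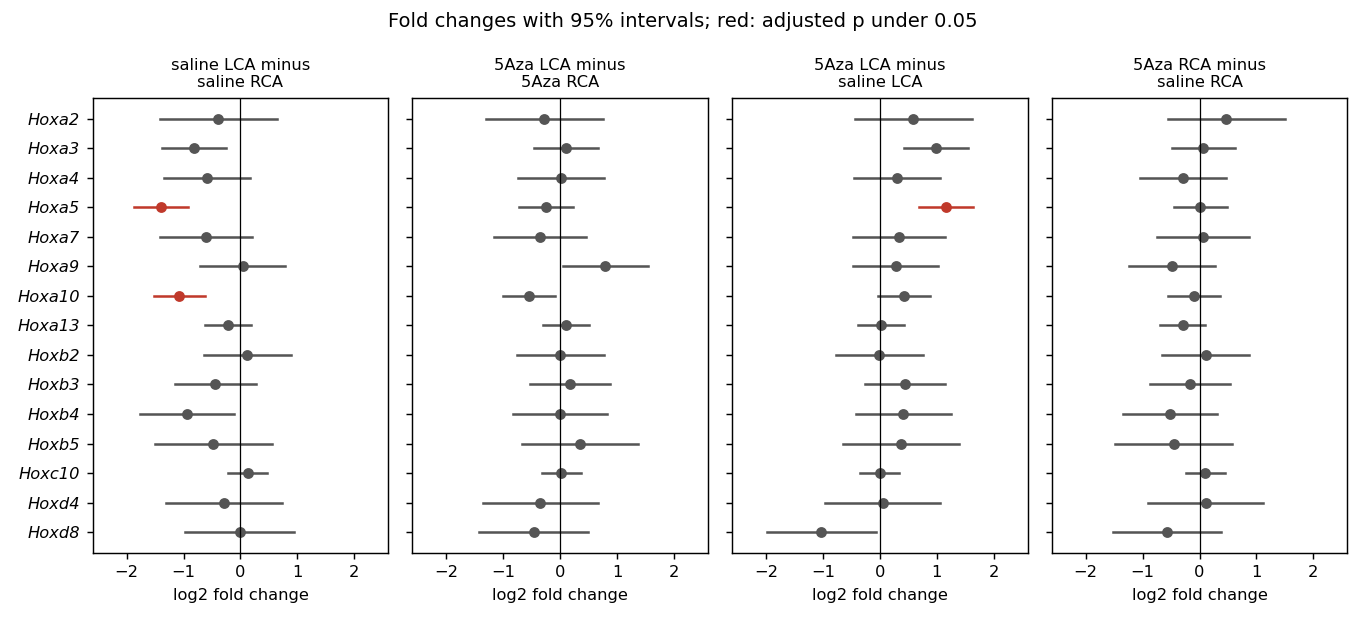
Log2 fold changes (horizontal axis) with 95% intervals of the 15 tested Hox genes in the 4 pairwise comparisons, with genes past an adjusted p of 0.05 in red. Hoxa5 and Hoxa10 are red to the left of 0 between the arteries of saline mice, and Hoxa5 is red to the right of 0 between 5Aza LCA and saline LCA.

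Markers of other cells differed between 5Aza LCA and saline LCA as well. The fibroblast list was higher by 1.20 in 5Aza LCA, with 1 of its 11 tested markers called higher and none lower. Of all genes 0.293% were called higher and 0.17% lower. The 5 tested adipocyte markers averaged 5.70 to 7.39 in 5Aza LCA and 4.59 to 5.30 in saline LCA. Macrophage markers had a median log2 fold change of -1.31 with none of 12 called. Relative to the endothelial level of the same array, Hoxa5 remained 1.06 higher in 5Aza LCA with no overlap. Relative to the fibroblast level its difference was -0.04, with overlap. By the same fibroblast scale Hoxa5 was 1.06 lower in 5Aza LCA than in 5Aza RCA, with no overlap. Which cells carried the Hoxa5 RNA was not tested.

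**Figure D4:**
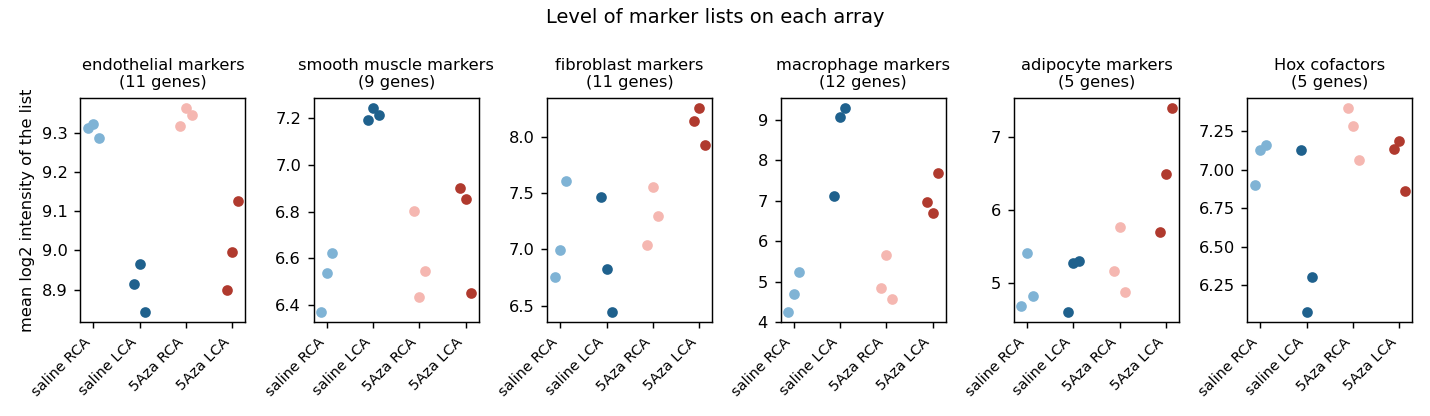
Mean log2 intensity (vertical axis, a separate range for each list) of 5 marker lists and of the Hox cofactors on each of the 12 arrays, by group. Macrophage markers are highest in saline LCA 2 and 4, fibroblast markers in 5Aza LCA (7.92 to 8.25), and endothelial markers are lower in both ligated groups.

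In the unligated artery 5Aza left no Hox difference that passed. In limma no gene at all was called between 5Aza RCA and saline RCA (0% of 10596, with 604 genes and no Hox gene at an unadjusted p under 0.05). Hoxa5 had a log2 fold change of 0.01 (95% interval -0.46 to 0.48) and Hoxa10 of -0.10 (95% interval -0.55 to 0.35). The Hox genes lay between -0.58 for Hoxd8 and 0.47 for Hoxa2, a gene of hindbrain and second arch patterning, with a median of -0.10. None of the 15 was separated between these groups, against 7.38% of all genes higher and 6.17% lower.

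In the interaction, which sets the flow effect under 5Aza against that under saline, no gene passed (0% of 10596, with 1009 genes at an unadjusted p under 0.05). Among them were 2 Hox genes: Hoxa5, at 1.15 (SE 0.30, limma adjusted p = 0.372), and Hoxa3, at 0.92 (SE 0.36, limma adjusted p = 0.498). The loss of the Hoxa5 difference between arteries under 5Aza therefore did not pass over all genes. Without saline LCA 1 it did, at 1.28 (adjusted p = 0.0234), and with arrays weighted by their quality it did as well, at 1.25 (adjusted p = 0.0239). Those fits called 1016 and 847 of all 10596 genes in the interaction, so the gain was not particular to Hoxa5. Averaged over both treatments, Hoxa5 fell by 0.82 (SE 0.15, adjusted p = 0.00819) and Hoxa10 by 0.81 (SE 0.15, adjusted p = 0.00727) in the ligated artery, the only 2 Hox genes called, where 6.81% of all genes were called lower, 6.06% higher and 12.9% in either direction.

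Proteins that work with Hox factors were examined as a list of Pbx, Meis and Prep (Pknox) genes, the partners that sharpen Hox binding to DNA. Of 9 listed, 5 were tested. Between the arteries of saline mice 1 was lower, none higher and 4 did not pass, with a median of -0.76. Of all genes 6.24% were called lower there and 5.29% higher. Meis2 read 9.56, 9.33 and 9.44 in saline RCA and 9.14, 7.57 and 7.58 in saline LCA. Saline LCA 1 lay close to the unligated samples and the other ligated samples far below. Meis2 fell by 1.34 (SE 0.34, limma adjusted p = 0.0306), and the call ended without any single saline array other than saline LCA 1 (adjusted p 0.0724 to 0.133). Meis1 read 7.40, 7.62 and 6.11 in 5Aza LCA against 6.06, 4.70 and 4.75 in saline LCA, which is 1.88 higher on the log2 scale (adjusted p = 0.105). No cofactor was called in a comparison of 5Aza with saline, but between 5Aza LCA and saline LCA Meis2 was called higher without saline LCA 1 (1.55, adjusted p = 8.3e-05) and with array weights (1.48, adjusted p = 0.000858). Those fits called 2051 and 2254 of all 10596 genes in that comparison, against 49 in the main fit.

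Of 29 tested regulators of Hox chromatin, 25 did not pass between the saline arteries, and the 4 called (13.8%) were a share near the 11.5% of all genes. Of 18 tested Polycomb genes, 2 passed as lower, 1 as higher and 15 in neither direction. Phf1, an accessory factor of Polycomb complex PRC2, fell from 7.69 to 7.84 in saline RCA to 6.96, 5.78 and 5.60 in saline LCA 1, 2 and 4 (log2 fold change -1.65, SE 0.32, adjusted p = 0.0126). The core PRC2 subunits went apart, with Eed lower (-0.64, adjusted p = 0.0452) and Suz12 higher (0.81, adjusted p = 0.0418). Of 11 tested trithorax and related genes 1 was higher, the methyltransferase gene Kmt2b (0.73, adjusted p = 0.0477). The calls of Eed, Suz12 and Kmt2b were each lost in 8 or more of 12 fits without 1 array (adjusted p up to 0.177, 0.168 and 0.164), and Suz12 and Kmt2b fell to 0.25 and 0.30 when a gene's probes were averaged. Phf1 lost its call without saline RCA 2, saline LCA 2 or saline LCA 4 (adjusted p 0.0508 to 0.0682).

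Retinoic acid, which switches on anterior Hox genes in the embryo, was followed through its receptors and enzymes. Of 6 tested, the receptor gene Rarg was lower in saline LCA (5.16, 5.25 and 5.19 against 5.91, 6.57 and 6.03 in saline RCA). All ligated samples lay below all unligated ones. Rarg fell by 0.98 (SE 0.21, limma adjusted p = 0.0188), and the other 5 did not pass, where 6.24% of all genes were called lower. Rarg was no longer called without saline RCA 2, saline LCA 2 or saline LCA 4 (adjusted p 0.0654 to 0.0751). Of 8 tested homeobox genes of vessels outside the clusters none passed in that comparison, with Zeb2 at -0.66 (adjusted p = 0.0774) and Hhex at 0.94 (adjusted p = 0.116) among those with the smallest p. Of 11 noncoding RNAs of the clusters 2 had probes and none was detected well enough to be tested.

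Genes reported as targets of Hox proteins in endothelial or other cells included members that rose and 1 that fell. Of 12 tested, 3 passed as higher, 1 as lower and 8 in neither direction between the arteries of saline mice. Of all genes 5.29% were called higher and 6.24% lower there. The Tie2 ligand Angpt2 read 6.29, 6.40 and 6.39 in saline RCA and 8.93, 9.14 and 9.02 in saline LCA. It rose by 2.67 (SE 0.30, limma adjusted p = 0.000931), in every alternative run, and by 1.91 between the 5Aza groups (adjusted p = 0.0229). The endothelial nitric oxide synthase Nos3 read 8.32, 8.69 and 8.57 in saline RCA and 7.83, 6.08 and 6.00 in saline LCA, with saline LCA 1 again nearest to the unligated artery. Nos3 fell by 1.89 (SE 0.38, adjusted p = 0.0149). E-selectin, Sele, rose by 1.57 (SE 0.47, adjusted p = 0.0497), and the beta 3 integrin Itgb3, detected on no saline RCA array, was at least 1.38-fold higher (adjusted p = 0.0236). Sele lost its call in 10 of 12 fits without 1 array (adjusted p up to 0.19). Nos3 lost its call without saline RCA 2, saline LCA 2 or saline LCA 4 (adjusted p 0.0589 to 0.0772), and Itgb3 without any single saline array other than saline LCA 1 (adjusted p 0.0577 to 0.11). Between the 5Aza arteries Angpt2 lost its call without 5Aza RCA 1, 5Aza RCA 4 or 5Aza LCA 4 (adjusted p 0.0696 to 0.13). Its log2 fold change stayed at 1.55 to 1.82 in those fits. That call was also lost with no filter, with probes averaged and with only the groups compared. The same held with either replicate block and with the minimum fold of 1.5. No target gene was called between 5Aza LCA and saline LCA with all arrays weighted alike. Without saline LCA 1, Nos3 was called higher there (1.20, adjusted p = 0.000975) and Angpt2 lower (-1.11, adjusted p = 0.0443), among 2051 of all 10596 genes called. With array weights Nos3 was called higher (1.10, adjusted p = 0.00601), and Angpt2 (-1.10, adjusted p = 0.0208) and Itgb3 (adjusted p = 0.0405) lower. The weighted fit called 2254 genes in that comparison, against 49 in the main fit. Nos3 was also called lower between the 5Aza arteries without saline LCA 1 (-0.97, adjusted p = 0.0103), where 286 genes were called, against 48.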

How the data were processed

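RNA of 12 samples (4 groups of 3) had been hybridised to Illumina bead arrays. The deposited values were probe intensities without normalization and a detection p-value per probe and array, per the file headers, with GenomeStudio 2010.3 named in the submitters' processing notes. A table of normalized intensities deposited by the authors, put on the log2 scale here, served as an alternative. Which array held which sample is not stated in the labels, so the fits have no batch term.

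From the intensities, normexp background correction on the detection p-values (offset 16), quantile normalization and log2 were run with limma 3.58.1 in R 4.3.3 (neqc). Probes with 1 gene symbol were kept where the detection p-value was under 0.05 on all 3 samples of a group, and the brightest probe stood for a gene. Each group had 1 mean in a limma fit over all 12 samples, and Benjamini-Hochberg adjustment ran over 10596 genes with a threshold of 0.05. The fit was tested on simulated data. Bounds for a group without detection used the lowest detected signal of each array.

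Nothing stated that the 3 pools of a group were independent, so p-values measure only the spread between pools, and the number of arrays limits precision. All tested Hox genes were named; in other lists, up to 4 genes past the threshold with the smallest p, otherwise up to 3. The Hox members and all lists were chosen with earlier results of these data known. Levels relative to marker lists were added after seeing the data. The alternatives were 15 planned settings and the removal of each array.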

Additional observations from a re-analysis of the deposited data

How the results depend on the processing

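Over 15 alternative settings and 12 fits without 1 array, no called value changed sign. Of the 90 Hox fold changes, 41 changed sign in at least 1 alternative, none of them called either way, and so did the median between the 5Aza arteries, which was -0.00. Hoxa5 stayed called lower in saline LCA in 26 of 27 (log2 fold change -1.52 to -1.01), Hoxa10 in 22 of 27, and Hoxa5 stayed called higher in 5Aza LCA in 10 of 27 (0.82 to 1.29). Between 5Aza LCA and saline LCA the number of Hox genes called was 0 under median centring, with no filter, with each probe on its own, with only the groups compared and with a minimum fold of 1.5, and 2 (Hoxa3 and Hoxa5) with array weights. Between the saline arteries it was 1 with only the groups compared, 0 with the minimum fold and 3 with array weights, which added Hoxa3 (-0.86, adjusted p = 0.0129). The interaction gave 1 with array weights, and the average flow effect gave 0 with the minimum fold. Without 1 array the counts were 1 to 3 between the saline arteries, 0 to 2 between 5Aza LCA and saline LCA, 0 to 1 for the interaction and 2 to 3 for the average. Hoxa3 was gained between the saline arteries without saline LCA 1 (adjusted p = 0.0471) or 5Aza LCA 1 (adjusted p = 0.0427) in limma. The cause of these changes was not tested.

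The labels do not say whether equal sample numbers mark arteries of the same mice, and the values did not settle it. The correlations of same-numbered deviations were weak, at -0.03 to 0.06. Even so, by the numbers of the sample descriptions, 6 of 6 saline arrays and 2 of 6 5Aza arrays correlated best with their own number. With the title number as a replicate block the counts were 1 between the saline arteries, 0 between 5Aza LCA and saline LCA and 0 for the average. With the description number as the block, 5Aza LCA against saline LCA gave 0. Between 5Aza LCA and saline LCA either block joined equal numbers from differently treated mice. Those counts of 0 therefore do not bear on pairing. Over all genes the calls between the saline arteries numbered 1221, and 179 to 3114 without 1 array. Those between 5Aza LCA and saline LCA numbered 49, and 0 to 2051. Both highest counts came without saline LCA 1. With array weights the counts were 3743 and 2254. Low Hox signals near the floor limit their fold changes, and 1 spread per gene was used for all groups. Over all genes the spread within a group (square root of the mean variance, log2 scale) was highest in saline LCA (0.512, against 0.333 to 0.373), and over the tested Hox genes in 5Aza RCA (0.566, against 0.387 to 0.483).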
